A study of Mus musculus with 8 samples.

Results

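Naive pluripotency transcription factors hold mouse embryonic stem cells in a state like that of the inner cell mass of the early embryo. The 10 genes described here are Klf2, Klf4, Klf5, Esrrb, Tfcp2l1, Zfp42, Tbx3, Nr5a2, Prdm14 and Nr0b1. They were taken by gene symbol from a table of 52338 gene rows with values, and all 10 were among the 14561 genes whose mean reached 1 FPKM, the filter of the tests. FPKM stands for fragments per kilobase of exon, scaled to a total per library, so levels can be compared between genes of different length. RNA was sequenced from mouse embryonic stem cells in 4 groups of 2 libraries, in a study of the long intergenic non-coding RNA linc1393. Control cells were labelled WT and untreated. The other groups were labelled as treated with sh-linc1393 (sh), sd-linc1393 (sd) or dd-linc1393 (dd); the labels do not spell out sd and dd. Since the controls were untreated, a difference from control cannot be told apart from an effect of giving any reagent, and the level of linc1393 was not analysed here. Whether the 2 libraries of a group are 2 cultures or 1 is not said in the labels. The p-values therefore stand against the spread of these libraries alone, and that spread may be technical.

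In naive stem cells these factors sit around Pou5f1 (Oct4), Sox2 and Nanog in a densely connected circuit. Leukemia inhibitory factor acts through Stat3 on Klf4 and Tfcp2l1, Wnt signalling relieves the repression of Esrrb and Klf2 by Tcf7l1, and Tbx3 lies downstream of phosphoinositide 3-kinase signalling. Prdm14 represses fibroblast growth factor signalling and DNA methyltransferase genes. Loss of most of these transcripts accompanies exit from the naive state toward the formative and primed states.

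Depth, as gene reads worked out from the FPKM and exon lengths, ran from 3658368 in control replicate 2 and 6415130 in control replicate 1 to 20387065 in dd replicate 2. Both controls were thus the shallowest libraries. The libraries divided first by replicate number: across all genes tested, the deviations of same-numbered libraries from their group means correlated at 0.75 to 0.89 (6 pairs of groups; genes are not independent replicates). Values are therefore given for each library, and treated libraries are set beside the control of the same number. All 10 stem cell markers listed (such as Sox2, Nanog and Sall4) were above 1 FPKM in every library, and their summed level was 1130 to 1518 FPKM in replicate 1 and 6777 to 9843 FPKM in replicate 2 libraries. Most of that gap was Dppa5a, at 292 to 557 FPKM in replicate 1 and 5866 to 8584 FPKM in replicate 2. The other 9 markers summed to 757 to 1019 and 911 to 1530 FPKM, and 5 of the 10 had a positive and 5 a negative difference between the numbers. Of 10 fibroblast feeder markers, 7 were under 1 FPKM in all libraries, and their sum, mostly Vim, was 25.6 to 44.2 FPKM. Primitive endoderm markers summed to 41.4 to 58.0 FPKM in replicate 1 and 13.3 to 21.2 FPKM in replicate 2, and trophoblast markers to 11.1 to 13.6 and 25.8 to 38.0 FPKM. Two-cell-like markers summed to 39.1 to 63.1 and 21.5 to 46.4 FPKM in the same order. In bulk libraries, fewer cells of a type and less RNA per cell cannot be told apart.

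Klf2, Klf4 and Klf5 encode Krüppel-like zinc finger factors that can stand in for one another in self-renewal. Klf2 (ENSMUSG00000055148, chromosome 8, 72319033 to 72321656, GRCm38) had 35.1 (control), 39.0 (sh), 52.8 (sd) and 48.8 (dd) FPKM among the replicate 1 libraries. In replicate 2 it had 141, 150, 158 and 182 FPKM in the same order. Every replicate 2 library thus lay above every replicate 1 library, and the control was the lowest library of each number. Klf4 (ENSMUSG00000003032, chromosome 4, 55527143 to 55532466) had 105, 98.1, 106 and 109 FPKM in replicate 1 and 52.3, 73.8, 72.6 and 87.4 FPKM in replicate 2. Its replicate 1 libraries were nearly level, while in replicate 2 the 3 treated libraries lay above the control. Klf5 (ENSMUSG00000005148, chromosome 14, 99298691 to 99315036) had 57.1, 68.5, 54.2 and 59.4 FPKM in replicate 1 and 11.9, 15.8, 21.6 and 14.9 FPKM in replicate 2. Klf5 was therefore low exactly in the libraries where Klf2 was high. The transcripts hold few stretches found elsewhere: of the 31-base stretches, 0% of Klf2, 2.002% of Klf4 and 1.91% of Klf5 occur in another gene's transcripts.

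The summed level of Klf2, Klf4 and Klf5 was 198 to 217 FPKM in replicate 1 and 205 to 285 FPKM in replicate 2 libraries. Over all 8 libraries this sum ranged less, in proportion, than each gene alone. Within replicate 2 that did not hold, since Klf2 alone ranged 1.29-fold, less than the sum. Klf2 made up 17.8% to 24.8% of that sum in replicate 1 and 62.5% to 68.7% in replicate 2. Klf4 held 47.7% to 53.3% and 25.5% to 30.9%, and Klf5 25.5% to 33.3% and 5.24% to 8.55%. These shares are a description of 8 libraries and were not tested.

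**Figure D1:**
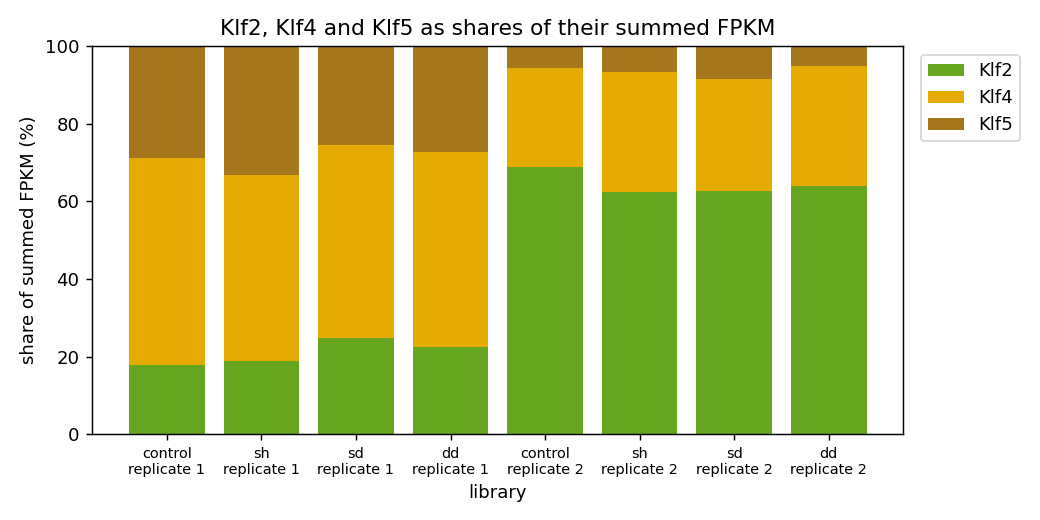
Shares (percent, y axis) of Klf2, Klf4 and Klf5 in their summed FPKM, 1 stacked bar per library (x axis). Klf4 is the largest share in the 4 replicate 1 libraries, at 47.7% to 53.3%, and Klf2 in the 4 replicate 2 libraries, at 62.5% to 68.7%.

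The nuclear receptor family was represented by Esrrb, Nr5a2 and Nr0b1. Esrrb encodes an orphan receptor that binds near many stem cell genes and can replace Nanog in some settings. Esrrb (ENSMUSG00000021255, chromosome 12, 86361117 to 86521628) had 16.5, 21.5, 29.5 and 30.2 FPKM in replicate 1 and 32.1, 48.4, 34.7 and 31.4 FPKM in replicate 2. The highest library was sh replicate 2, and dd replicate 2 lay slightly below its control. Nr5a2 encodes an orphan receptor that can activate Pou5f1. Nr5a2 (ENSMUSG00000026398, chromosome 1, 136842571 to 136960448) had 8.64, 15.7, 30.97 and 16.7 FPKM in replicate 1 and 5.75, 9.39, 8.30 and 9.89 FPKM in replicate 2. The control was again the lowest library of each number, and sd replicate 1 was the highest of all 8. Nr0b1 encodes an atypical receptor without a DNA-binding domain that acts as a corepressor. Nr0b1 (ENSMUSG00000025056, chromosome X, 86191764 to 86195947) had 121, 138, 190 and 150 FPKM in replicate 1 and 30.8, 32.1, 44.9 and 60.5 FPKM in replicate 2. Its 2 sets of libraries did not overlap, as for Klf5, and the control was the lowest of each.

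Zfp42, also called Rex1, encodes a zinc finger protein related to Yy1 and is a common reporter of the naive state. It was the most abundant of the 10 genes in 7 of 8 libraries, the exception being control replicate 2, where Klf2 stood above it. Zfp42 (ENSMUSG00000051176, chromosome 8, 43295063 to 43306980) had 293, 298, 372 and 361 FPKM in replicate 1 and 132, 220, 261 and 273 FPKM in replicate 2. All treated libraries lay above the control of their number, by little in sh replicate 1. Of its 31-base stretches, 13.4% also occur in the pseudogene Zfp42-ps1. That pseudogene was listed at 83.5 to 153 FPKM in replicate 1 and 70.8 to 241 FPKM in replicate 2, so the division of reads between the 2 genes is uncertain.

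Tfcp2l1, a CP2 family factor and Stat3 target, and Tbx3, a T-box factor, were less abundant. Tfcp2l1 (ENSMUSG00000026380, chromosome 1, 118627945 to 118685168) had 8.41, 9.53, 12.4 and 8.66 FPKM in replicate 1 and 7.50, 13.7, 11.2 and 10.4 FPKM in replicate 2. Its highest level was 1.83 times its lowest, the narrowest range of the 10 genes, and the 2 replicate numbers overlapped. Tbx3 (ENSMUSG00000018604, chromosome 5, 119670669 to 119684724) had 19.6, 25.01, 22.3 and 21.8 FPKM in replicate 1 and 11.8, 21.03, 13.9 and 13.9 FPKM in replicate 2. Both sh libraries were the highest of their number. The antisense gene Tbx3os1 shares 115 exon bases with Tbx3, and the strand setting of the counting is not given in the sources. Tbx3os1 itself had 0.165 to 2.60 FPKM.

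Prdm14 encodes a zinc finger factor of the PRDM family that is also needed for germ cell specification. Prdm14 (ENSMUSG00000042414, chromosome 1, 13113457 to 13127163) had 7.11, 7.95, 4.70 and 1.47 FPKM in replicate 1 and 8.64, 16.4, 13.3 and 13.6 FPKM in replicate 2. The dd libraries were thus the lowest of the 8 and, in replicate 2, the highest but for sh replicate 2. Prdm14 had the widest range of the 10 genes, at 11.2-fold. Its lowest value rests on 72 reads, the fewest of any of the 10 genes in a library, against 117 in control replicate 1. The ratio of these 2 libraries was 0.206 (exact 95% interval 0.151 to 0.279, counting error only). In replicate 2 the ratio of dd to control was 1.58 (interval 1.25 to 2.01), so dd lay below control in one number and above it in the other beyond counting error.

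**Figure D2:**
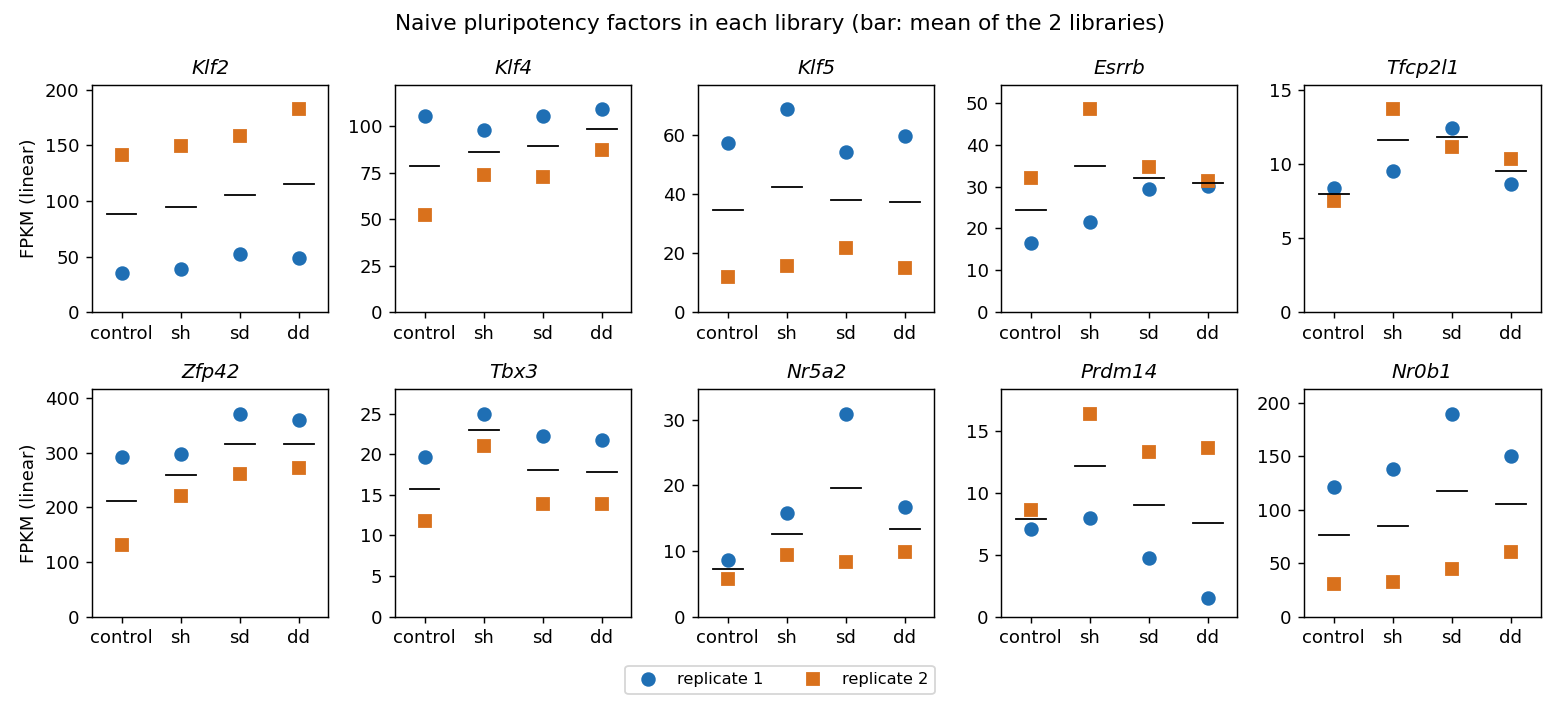
FPKM (linear y axis from 0) of each gene in the 4 groups (x axis). Blue circles are replicate 1 libraries, orange squares replicate 2 libraries and black bars the mean of the 2; circles and squares do not overlap in 7 of the 10 panels, and Klf2, Esrrb and Prdm14 are the genes of these 7 with the squares on top.

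Ranked by FPKM from 1 (highest) to 10, Klf4 had rank 3 and Tfcp2l1 rank 9 in every library. Nr0b1 had rank 2 in the replicate 1 libraries and rank 4 or 5 in replicate 2, while Klf2 had rank 5 in replicate 1 and rank 1 or 2 in replicate 2. The lowest rank went to Prdm14 in replicate 1 and to Nr5a2 in replicate 2. In control, the mean was 212 FPKM for Zfp42 (SD 114, n = 2), 88.1 for Klf2 (SD 74.9, n = 2), 78.8 for Klf4 (SD 37.5, n = 2) and 76.1 for Nr0b1 (SD 64.0, n = 2). The means of Klf2, Klf4 and Nr0b1 did not differ beyond this spread, which holds the difference between the replicate numbers. Within each control library these genes stood apart, in opposite order. They had 35.1, 105 and 121 FPKM in control replicate 1, and 141, 52.3 and 30.8 FPKM in control replicate 2. Both control values of Zfp42 lay above both of Klf4 and both of Nr0b1, while they overlapped those of Klf2. At the lower end, no difference beyond the spread was seen between Tfcp2l1 (7.95 FPKM, SD 0.640, n = 2), Prdm14 (7.87 FPKM, SD 1.08, n = 2) and Nr5a2 (7.19 FPKM, SD 2.05, n = 2). Each gene stood above 80.1% to 99.6% of all gene rows of its library.

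Promoter sequence was at hand for 7 of the 10 genes, in 9 windows of 300 bases from RefSeq (GRCm38.p6) that run from 250 bases before to 50 bases after an annotated start. Those of Klf2, Klf4, Nr0b1 and Zfp42 are shown because these genes are among the most abundant of the 10, and because Klf2 differs from the other 3 in direction between the replicate numbers. Capitals mark matches to short motifs, each searched on both strands. The GC box was searched as GGGCGG, and the CACCC box by the letters of its name. The Stat palindrome was searched as TTCNNNGAA and the octamer, a binding motif of POU factors, as ATGCAAAT. The TATA box was searched as TATAAA. An extended nuclear receptor half-site (AAGGTCA) was searched too. Each is printed 5′ to 3′ on the strand of its gene.

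Klf2 (chr8:72318812-72319111, plus strand): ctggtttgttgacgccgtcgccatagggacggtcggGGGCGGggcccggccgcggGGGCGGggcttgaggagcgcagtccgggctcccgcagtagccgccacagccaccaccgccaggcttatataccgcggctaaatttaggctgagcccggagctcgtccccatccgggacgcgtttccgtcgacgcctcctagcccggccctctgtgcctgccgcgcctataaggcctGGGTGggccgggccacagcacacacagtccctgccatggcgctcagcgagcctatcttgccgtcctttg
Klf4 (chr4:55532426-55532725, minus strand): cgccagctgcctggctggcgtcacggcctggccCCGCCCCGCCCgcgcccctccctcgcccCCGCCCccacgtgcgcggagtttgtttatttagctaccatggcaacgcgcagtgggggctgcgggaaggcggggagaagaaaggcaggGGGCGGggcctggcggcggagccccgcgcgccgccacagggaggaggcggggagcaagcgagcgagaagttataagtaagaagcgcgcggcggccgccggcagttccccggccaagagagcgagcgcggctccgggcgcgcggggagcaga
Nr0b1 (chrX:86191525-86191824, plus strand): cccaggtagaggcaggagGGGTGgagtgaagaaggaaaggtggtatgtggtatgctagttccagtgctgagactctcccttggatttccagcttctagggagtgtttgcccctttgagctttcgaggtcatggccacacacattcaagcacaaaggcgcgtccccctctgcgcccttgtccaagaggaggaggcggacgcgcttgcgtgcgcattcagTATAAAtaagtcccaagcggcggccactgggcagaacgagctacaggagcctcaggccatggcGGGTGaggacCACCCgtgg
Zfp42 (chr8:43306960-43307259, minus strand): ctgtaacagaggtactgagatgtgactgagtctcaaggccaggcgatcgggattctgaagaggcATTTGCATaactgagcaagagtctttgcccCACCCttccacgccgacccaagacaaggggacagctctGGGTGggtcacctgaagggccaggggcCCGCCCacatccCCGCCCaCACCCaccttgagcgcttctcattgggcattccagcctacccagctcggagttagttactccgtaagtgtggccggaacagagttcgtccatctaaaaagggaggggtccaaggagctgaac

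Klf2 held 2 GC boxes and 1 CACCC box, Klf4 held 4 GC boxes of which a pair overlap by 1 base, and Nr0b1 held 3 CACCC boxes and 1 TATA box. Zfp42 held 2 GC boxes, 3 CACCC boxes and 1 octamer. Of all 32851 promoter windows of this length, 35.7% held a GC box, 57.5% a CACCC box, 13.6% a TATA box, 8.30% a Stat palindrome, 4.72% the half-site and 1.74% an octamer. The Stat palindrome occurred in the upstream window of Esrrb, and TATA boxes also in Tfcp2l1 and in the upstream window of Nr5a2. No half-site was found in the 9 windows. The GC content was 69.3% for Klf2, 74.3% for Klf4, 58.7% for Nr0b1 and 57.7% for Zfp42, against a median of 52.7% over all windows. Letters that match are a description of the sequence, not a site.

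The comparison of replicate 2 with replicate 1 libraries asked how far the 10 genes follow the split between the numbers. The fit used limma on log2(FPKM + 1) with a term for group, over 4 pairs of libraries. Klf2 and Prdm14 were higher in replicate 2, and Klf5, Nr0b1, Nr5a2 and Zfp42 were lower. Thus 2 of the 10 genes were called higher, where 46.6% of all genes tested were, and 4 were called lower, where 14.6% were (61.3% called in all). The numbers also differ in how many gene rows were above 0 FPKM, at 30.9% to 37.7% in replicate 1 and 62.4% to 89.0% in replicate 2. The shallowest library, control replicate 2, had 40970 such rows, against 16152 in control replicate 1. The study's labels give no meaning to the number, and what differs between the numbers was not tested.

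Klf2 had a mean of 43.9 FPKM in replicate 1 (SD 8.25, n = 4) and 158 FPKM in replicate 2 (SD 17.8, n = 4). The difference was 1.83 log2 (SE 0.213) with a limma adjusted p of 1.1e-04, and it was positive in 4 of 4 groups. Klf5 had means of 59.8 FPKM (SD 6.18, n = 4) and 16.0 FPKM (SD 4.07, n = 4), a difference of -1.86 log2 (SE 0.248; limma adjusted p = 2.5e-04). Nr0b1 had means of 150 FPKM (SD 29.1, n = 4) and 42.1 FPKM (SD 13.8, n = 4), a difference of -1.84 log2 (SE 0.232; limma adjusted p = 1.78e-04). Both were negative in 4 of 4 groups. Prdm14 had means of 5.31 FPKM (SD 2.91, n = 4) and 13.0 FPKM (SD 3.22, n = 4), with a difference of 1.28 log2 (SE 0.366; limma adjusted p = 0.0140). Within the groups this difference ran from 0.25 in control to 2.57 in dd.

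Nr5a2 was lower by a fitted -0.92 log2 (SE 0.286; limma adjusted p = 0.0199) and Zfp42 by -0.62 log2 (SE 0.213; limma adjusted p = 0.0298). Both were negative in 4 of 4 groups. The pseudogene Zfp42-ps1, which shares sequence with Zfp42, went from 83.5 FPKM in replicate 1 to 175 in replicate 2 in sh. It went from 141 to 196 in sd, from 153 to 241 in dd and from 93.2 to 70.8 in control. The part of read division between these entries in the Zfp42 call was not tested. Klf4 (-0.56 log2, SE 0.223), Tbx3 (-0.55 log2, SE 0.235) and Esrrb (0.58 log2, SE 0.268) also kept 1 sign in 4 of 4 groups but missed the threshold, with limma adjusted p of 0.0526, 0.0684 and 0.0853. Tfcp2l1 differed by 0.11 log2 (SE 0.250; limma adjusted p = 0.726) and changed sign between groups. In all, 3 of the 10 genes were higher in replicate 2 in all 4 groups and 6 were lower, where 49.7% and 18.4% of all genes tested were. The libraries of the 2 numbers did not overlap for 7 of the 10 genes, against 56.1% of all genes tested. Of those 7, Klf2, Esrrb and Prdm14 lay above in replicate 2 (41.9% of all genes) and Klf4, Klf5, Zfp42 and Nr0b1 below (14.2%).

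These differences depend on the scaling, since the median of all genes tested was itself 0.73 log2 higher in replicate 2. Relative to that median, Klf2 and Prdm14 were the genes of the 10 that stood above it. Quantile normalization brought the median to 0.02 and median ratio scaling to 0.30, and under each of them Klf2 was called higher while Klf4, Klf5, Zfp42, Tbx3, Nr5a2 and Nr0b1 were called lower. Of all genes tested, 27.6% were called higher and 29.8% lower under quantile normalization, and 35.5% and 23.9% under median ratio scaling. Prdm14 then missed the threshold, at 0.75 log2 under both. The other 3 calls were lost in some of the fits that left out 1 library. With group as a term, leaving out 1 library takes the whole pair of its group out of the estimate. Zfp42 was called only when all libraries were kept or a dd library was left out, and it also missed the threshold with no filter (limma adjusted p = 0.0567). Nr5a2 lost its call without sh replicate 1, sd replicate 1 or sd replicate 2, and Prdm14 without sd replicate 1, sd replicate 2 or dd replicate 2. Without either sd library Nr5a2 was at -0.63 log2, and without either dd library Prdm14 was at 0.85 log2. Klf2, Klf5 and Nr0b1 were called under every alternative tried for this comparison. The longest coding transcripts of Klf2 and Prdm14 had a GC content of 61.6% and 50.5%, and those of the 4 genes called lower 43.3% to 55.2%.

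**Figure D3:**
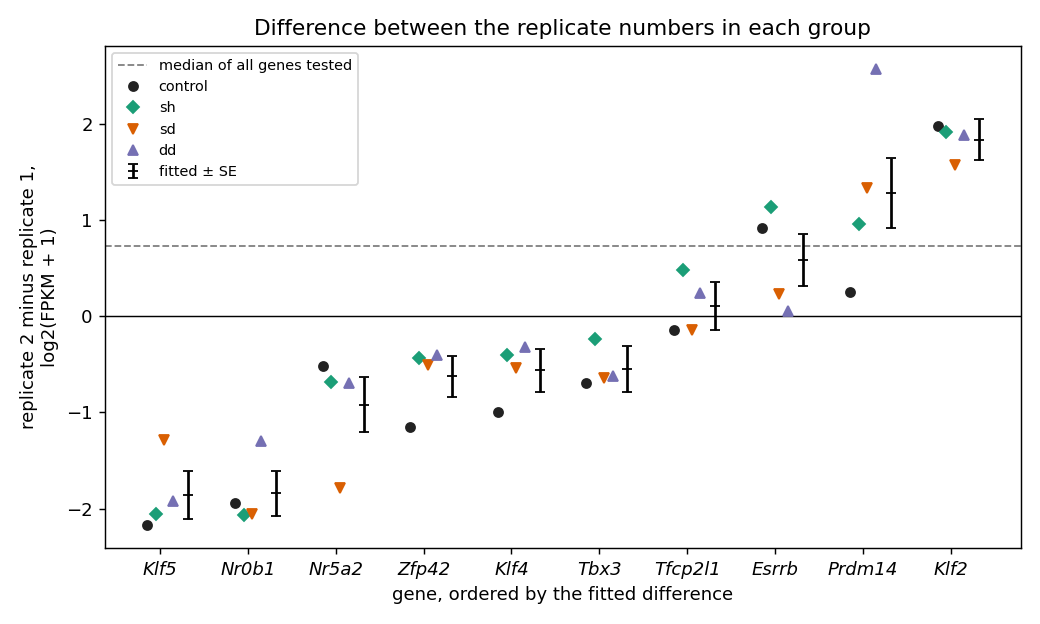
Replicate 2 minus replicate 1 in log2(FPKM + 1) (y axis) for each gene (x axis, ordered by the fitted difference). Coloured symbols are the 4 groups, black marks the fitted difference with its SE, and the dashed line the median of all genes tested at 0.73; Klf5 and Nr0b1 lie lowest and Klf2 highest.

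The comparisons of sh, sd and dd with control asked whether the naive factors differed after each linc1393 treatment. Most of the 10 genes had higher values than the control of the same number, and none of these differences passed the test. The 3 comparisons share the 2 control libraries, so their signs are not independent. Unless said otherwise, each SE below is from the fit without a term for replicate number, so it also holds the difference between the numbers. limma called 0 of the 10 genes in each comparison, where 0% of all genes tested were called in sh, sd, dd and the F test over the 4 groups. Of the 10 genes, 0 had an unadjusted p under 0.05; of all 14561 genes 32, 50 and 83 did, and 22 in the F test. With the replicate number as a block, 0% of all genes were again called in each (480, 945 and 1310 at an unadjusted p under 0.05, and 574 in the F test), and 1 of the 10 genes, Nr5a2 in sd, was under 0.05 unadjusted. limma with voom weights on the recovered reads also called 0 of the 10 and 0 of all genes, without and with the block. Without the block, 6, 9 and 23 of all genes had an unadjusted p under 0.05. With the block 403, 821 and 1383 did in sh, sd and dd, among them 2 of the 10 genes in sd, Zfp42 and Nr5a2.

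In sh, 9 of the 10 genes were higher than control in both replicate numbers, against 35.2% of all genes tested, and 0 were lower in both, against 10.6%. The median over the 10 genes was 0.43 log2, and it was 0.15 for all genes tested. Among all genes with a mean of at least 5 FPKM, which the 10 genes all reached, the median was 0.19. With the replicate block and without control replicate 2, the shallowest library, the 10 genes had a median of 0.16. All genes tested then had 0.30, so the order turned. Without sh replicate 1 these were 0.40 and 0.33 with the block. Klf4 was the exception, with -0.10 log2 within replicate 1 and 0.49 within replicate 2. The largest fitted differences were those of Nr5a2 at 0.71 log2 (SE 0.760) and Tbx3 at 0.56 log2 (SE 0.603), and both had a limma adjusted p of 1. The 10 genes had a median of 0.17 log2 within replicate 1 and 0.60 within replicate 2, against 0.10 and 0.20 for all genes. After median ratio scaling, 4 of the 10 were higher in both numbers and 2 were lower (22.6% of all genes were higher), and after quantile normalization 7 were higher (25.6%).

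In sd, 8 of the 10 genes were higher than control in both numbers, against 37.5% of all genes tested, and 0 were lower in both, against 12.7%. The median was 0.41 log2, beside 0.17 for all genes. Among all genes with a mean of at least 5 FPKM, which the 10 genes all reached, the median was 0.27. With the replicate block and without control replicate 2, the 10 genes had 0.33 and all genes 0.29 (0.12 and 0.65 without the block). Klf5 (-0.07 within replicate 1) and Prdm14 (-0.51 within replicate 1) were the exceptions. Nr5a2 had the largest difference, 1.10 log2 (SE 0.760; limma adjusted p = 1), and 0.723 was its limma adjusted p with the replicate block. It came from 1.73 log2 within replicate 1, where reads were 3.58 times those of control (exact 95% interval 3.20 to 4.03, counting error only), and 0.46 within replicate 2, where they were 1.44 times (1.19 to 1.76). Zfp42 followed at 0.66 log2 (SE 0.742), with 0.34 and 0.98 within the numbers. Nr0b1 had 0.58 log2 (SE 1.18), with 0.64 and 0.53 within the numbers. After median ratio scaling 5 of the 10 were higher in both numbers (24.4% of all genes), and after quantile normalization 6 were (30.6%).

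In dd, 8 of the 10 genes were higher than control in both numbers, against 31% of all genes tested, and 0 were lower in both, against 15.1%. The median was 0.40 log2, beside 0.06 for all genes. Among all genes with a mean of at least 5 FPKM, which the 10 genes all reached, the median was 0.23. With the replicate block, the medians of the 10 genes and of all genes were 0.21 and 0.18 without control replicate 2. Without dd replicate 2 they were 0.25 and 0.23. Nr5a2 had 0.78 log2 (SE 0.760), with 0.88 and 0.69 within the numbers, Zfp42 0.67 (SE 0.742) and Nr0b1 0.63 (SE 1.18), and the limma adjusted p was 1 for all 3. With the replicate block their SEs were 0.404, 0.302 and 0.328. The limma adjusted p was then 0.554, 0.553 and 0.554. Prdm14 had the one negative fitted difference, -0.56 log2 (SE 0.968), which joins -1.72 within replicate 1 and 0.60 within replicate 2. Without dd replicate 1 its difference was 0.73 log2 without the block, and 0.30 with it. Esrrb had 0.83 log2 within replicate 1 and -0.03 within replicate 2. After median ratio scaling 3 of the 10 were higher in both numbers (22.7% of all genes), and after quantile normalization 5 were (29.5%).

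The control was the lowest of the 4 replicate 1 libraries for 7 of the 10 genes, against 43.3% of all genes tested, and the lowest of the 4 replicate 2 libraries for 9 of them, against 35.1%. The exceptions were Klf4, Klf5 and Prdm14 in replicate 1 and Esrrb in replicate 2. The controls were also the shallowest libraries, and the part of depth in this order was not tested. Under median ratio scaling, all 10 genes were above control within replicate 2 in sd and in dd, and 8 in sh, beside 5, 3 and 4 within replicate 1. Of all genes tested, 51.7% (sd), 47% (dd) and 51.3% (sh) were above control within replicate 2 under that scaling. Within replicate 1 these shares were 46.2%, 49% and 48%.

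**Figure D4:**
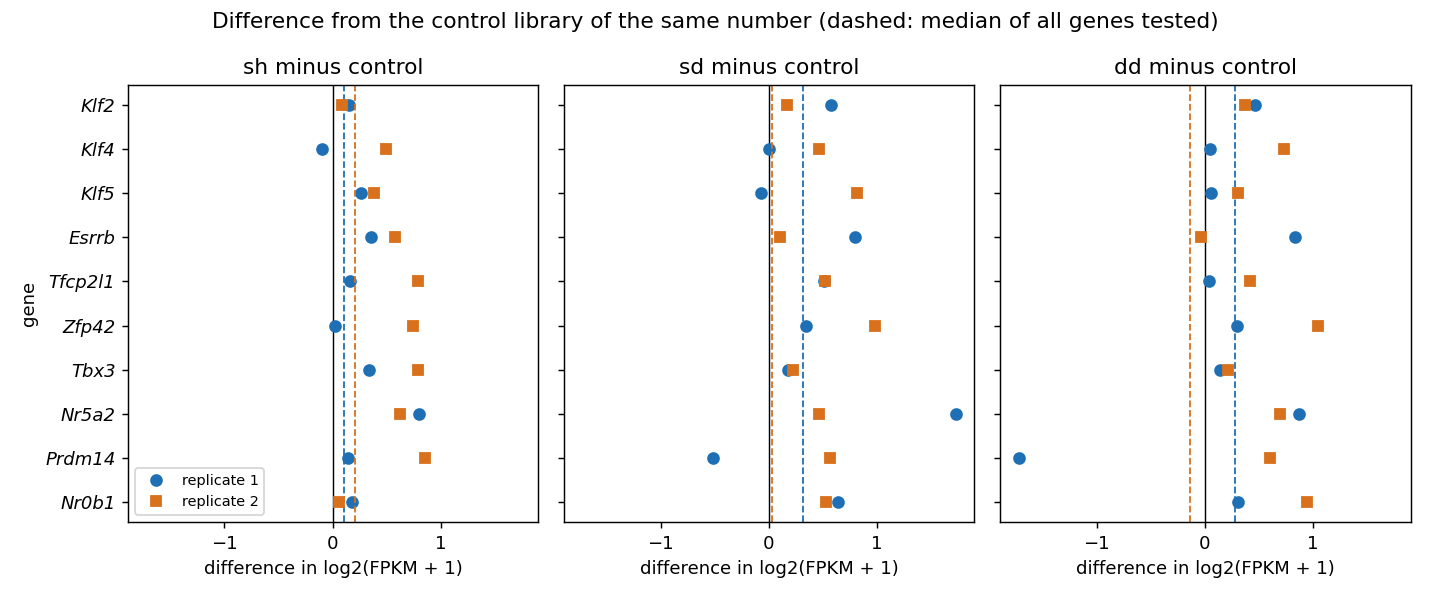
Difference in log2(FPKM + 1) (x axis) of each gene (y axis) from the control library of the same number, in sh, sd and dd. Blue circles are replicate 1, orange squares replicate 2 and dashed lines the median of all genes tested in that number; most points lie right of 0, and Prdm14 in dd has the widest gap, at -1.72 and 0.60.

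Within the replicate numbers, some of the 10 genes had similar profiles across groups. Over the 8 libraries, after subtracting the mean of each number, Pearson's r was 0.92 between Klf4 and Zfp42, 0.86 between Klf2 and Nr5a2, 0.84 between Klf2 and Nr0b1 and 0.77 between Zfp42 and Nr0b1. It was -0.44 between Klf2 and Prdm14 and -0.01 between Klf2 and Klf5. The positive values were the highest among all pairs of the 10 genes, and -0.44 was the lowest. Without the subtraction, r was -0.56 between Klf2 and Nr5a2, -0.87 between Klf2 and Nr0b1 and -0.95 between Klf2 and Klf5. For Klf4 and Zfp42 it was then 0.95, for Zfp42 and Nr0b1 0.85 and for Klf2 and Prdm14 0.68. These values describe 8 libraries that share their scaling and the shallow controls. The genes most like the mean deviation of the 10, of 9925 protein-coding genes compared, were Tmed10 (r = 0.99), Gm3383 (0.99), Immt (0.98), Ddx3x (0.97) and Btf3 (0.97). This likeness was not tested.

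No gene of the lists around the naive circuit was called against control. Of 17 other naive-state genes, 6 were higher and 0 lower than control in both numbers in sh, 11 and 1 in sd, and 8 and 2 in dd, with medians of 0.08, 0.39 and 0.21 log2. Of all genes tested, 35.2% (sh), 37.5% (sd) and 31% (dd) were higher in both numbers, and 10.6%, 12.7% and 15.1% were lower. Dppa4, a chromatin protein gene of pluripotent cells, had 26.3, 27.3, 43.1 and 53.7 FPKM in the replicate 1 libraries of control, sh, sd and dd, and 24.2, 30.6, 34.4 and 33.1 FPKM in replicate 2. Tdh, the threonine dehydrogenase gene, had 52.5, 74.6, 86.5 and 71.0 FPKM, and 45.2, 34.1, 64.9 and 55.1 FPKM. Dppa3, the maternal factor Stella, was listed at 0 FPKM in control replicate 1 and had 0.110 to 1.35 FPKM in the treated replicate 1 libraries and 1.36 to 9.95 FPKM in replicate 2.

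Of the 23 core factors and inputs of the circuit, 8 were higher and 4 lower than control in both numbers in sh, 9 and 5 in sd, and 6 and 5 in dd, with medians of 0.26, 0.14 and -0.12 log2. The counts of higher genes lie near the background of 35.2% (sh), 37.5% (sd) and 31% (dd) of all genes tested. Jak1, the kinase of the leukemia inhibitory factor receptor, had 5.03, 10.4, 10.9 and 9.81 FPKM in replicate 1 and 4.43, 7.90, 6.02 and 7.36 FPKM in replicate 2. Its libraries thus lay above the control of their number in 6 of 6 cases, and its limma adjusted p in the F test was 1. Pou5f1, the core factor Oct4, had 83.1, 24.2, 17.8 and 21.03 FPKM in replicate 1 and 251.1, 14.7, 130 and 53.1 FPKM in replicate 2. It was lower than control in 6 of 6 cases, and its limma adjusted p was 1 in the F test too. Jak1 and Pou5f1 were named for a small unadjusted p in that test. The choice therefore favoured such orders, and their share over all genes was not counted. Sox2 had 177 to 235 FPKM in replicate 1, and 19.7 FPKM in sh replicate 2 against 231 to 371 FPKM in the other replicate 2 libraries.

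Of 24 paralogues and relatives of the 10 genes, 14 passed the filter and 0 were called against control. Klf6, another Krüppel-like factor, had 7.49, 9.95, 10.6 and 8.76 FPKM in replicate 1 and 2.37, 5.93, 6.17 and 4.61 FPKM in replicate 2. Its replicate 2 libraries were lower (-0.87 log2; limma adjusted p = 0.0152), as for Klf5. Yy1, the zinc finger factor to which Zfp42 is related, had 10.3, 9.58, 22.7 and 14.4 FPKM, and 10.99, 14.2, 15.0 and 27.1 FPKM. Klf15 had 3.10 to 9.01 FPKM over the 8 libraries.

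Of 15 formative and primed genes, which mark the states after the naive one, 9 passed the filter and 0 were called against control, with medians of 0.16, 0.21 and 0.08 log2 in sh, sd and dd. Otx2, a homeobox factor of the formative state, had 0.111, 1.45, 4.65 and 4.04 FPKM in replicate 1 and 5.50, 5.44, 7.45 and 7.16 FPKM in replicate 2. Pou3f1, a POU factor of primed cells, had 3.24, 0.132, 0.702 and 0.759 FPKM, and 2.06, 0.781, 0.710 and 0.217 FPKM. All 6 of its treated libraries lay below both controls and under 1 FPKM, with a limma adjusted p of 1 in the F test. Pou3f1 was named for a small unadjusted p in that test. The choice therefore favoured such an order, and its share over all genes was not counted. Zic2 had 0.379 to 3.89 FPKM over the 8 libraries. Against the split between the numbers, 1 of the 9 genes was called higher in replicate 2 and 5 were called lower, and of the 17 other naive-state genes 8 were called higher and 5 lower. Over all genes tested these shares were 46.6% higher and 14.6% lower, so the 8 of 17 lie near the background.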

How the data were processed

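RNA of mouse embryonic stem cells was sequenced in 8 libraries, 2 in each of 4 groups given by the labels. The authors deposited FPKM values per gene. The unit is taken from the name of the deposited table and from its values, since the column headers give only group and replicate number. CASAVA 1.4, HISAT2 and the build mm10 are named in the submitters' processing notes. The sources used here give no counting program, annotation, FPKM formula or strand setting. Genes were matched to GENCODE M21 (GRCm38) by Ensembl identifier (52081 of 52338 rows), which gave symbols, positions and exon lengths. FPKM times exon length fell on whole multiples of 1 read within 0.02 for 98.3% to 98.9% of values under 100 reads, which gave reads and depth. Intervals are exact at 95% and cover counting error only.

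Values of log2(FPKM + 1) were tested with limma 3.58.1 (R 4.3.3), a scale that understates changes of low genes, for 14561 genes with a mean of at least 1 FPKM. All 4 groups were fitted without covariates (4 residual degrees of freedom) against control, with a mean-variance trend, two-sided p-values and Benjamini-Hochberg adjustment over all genes at 0.05. Replicate numbers were compared with group as a term. The fits were tested on simulated data, and no result here rests on that run. In these libraries the SE of Klf2 in sh was 1.17 without a block for replicate number and 0.301 with it. As alternatives, the pseudocount was 0.1 or 0.5, the filter was dropped or raised to 5 FPKM, and values were scaled by quantiles or median ratios. Fits of only the groups compared, of voom on recovered reads, with a block for replicate number (leaving 3 residual degrees of freedom) and without each library in turn were run too. The block rests on the likeness of same-numbered libraries (correlations 0.75 to 0.89), not on the labels. Counts of genes above control in both numbers under the 2 scalings were added after seeing the data. The 10 genes and the lists were chosen with earlier results of these data known. Genes named from a list are up to 3 with the smallest unadjusted p in the F test, and likeness is Pearson's r of deviations from the mean of each replicate number.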

Additional observations from a re-analysis of the deposited data

Results flagged for a closer look

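Several of the 10 genes differed from control in opposite directions in the 2 replicate numbers. Each number holds 1 library per group, so none of these differences between numbers was tested. In sh, Klf4 had -0.1026 log2 in replicate 1 and 0.4907 in replicate 2. In sd, Klf5 had -0.0739 and 0.8121, and Prdm14 had -0.5103 and 0.5697. In dd, Esrrb had 0.8345 and -0.031, and Prdm14 had -1.7184 and 0.6035, the widest gap of these. The difference between replicate 2 and replicate 1 of Tfcp2l1 also changed sign between groups, at -0.146 log2 (control), 0.4813 (sh), -0.1418 (sd) and 0.2364 (dd). It was not tested either.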

How the results depend on the processing

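No alternative called any of the 10 genes against control. Counts of called genes over all genes were 0 in each comparison with control except with the replicate block and a control library left out. Without control replicate 2 that fit called 1 gene in sd and 1 in dd. Without control replicate 1 it called 102 genes in sh, 149 in sd, 167 in dd and 38 in the F test, so leaving out 1 library gave 0 to 102, 0 to 149, 0 to 167 and 0 to 38. For replicate 2 against replicate 1, 8920 genes were called, or 5368 under the filter at 5 FPKM, where fewer genes were tested. With the replicate block, the smallest limma adjusted p among the 10 genes was 0.999 in sh, 0.723 in sd and 0.553 in dd. Without a block, leaving out 1 library sets unequal numbers against each other.

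Directions turned as follows, in log2. Quantile normalization gave Nr0b1 in sh -0.0143, Prdm14 in sd -0.12 and Tfcp2l1 between the numbers -0.38. Median ratio scaling gave -0.0913 for Klf2, -0.0149 for Klf4 and -0.0853 for Nr0b1 in sh, -0.036 for Klf4, -0.0648 for Tbx3 and -0.22 for Prdm14 in sd, and -0.42 for Tfcp2l1 between the numbers. The voom fit gave Prdm14 in sd -0.0287. Within control and sd alone, Tfcp2l1 had -0.15 and -0.14 between the numbers, and without 1 library -0.0171 to 0.19. Leaving out 1 library gave, in sh, -0.87 to 1.10 for Klf2, -0.30 to 0.69 for Klf4, -0.77 to 1.41 for Klf5, -0.10 to 1.04 for Esrrb, -0.19 to 0.96 for Zfp42, -0.19 to 1.18 for Prdm14 and -0.9135 to 1.15 for Nr0b1. In sd it gave -0.62 to 1.36 for Klf2, -0.26 to 0.73 for Klf4, -0.72 to 1.46 for Klf5, -0.0046 to 0.91 for Esrrb, -0.15 to 0.54 for Tbx3, -0.66 to 0.72 for Prdm14 and -0.45 to 1.61 for Nr0b1. In dd it gave -0.57 to 1.404 for Klf2, -0.11 to 0.89 for Klf4, -0.9066 to 1.27 for Klf5, -0.0569 to 0.86 for Esrrb, -0.16 to 0.53 for Tbx3, -1.84 to 0.73 for Prdm14 and -0.34 to 1.60 for Nr0b1. The ranges against control join fits without and with the replicate block, 16 fits for each gene and comparison. Without control replicate 1, 9 (sh), 7 (sd) and 7 (dd) of the 10 genes were positive without the block, and 10 in each with it. Without control replicate 2, 6, 6 and 5 were positive without the block, and 8 in each with it. The cause of the turns was not tested further. Depth limits the low genes most, with 81 to 713 reads of Prdm14 in replicate 2 libraries and 72 to 280 in replicate 1.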
